A study of Mus musculus with 8 samples.

Results

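The genes described here are the sensors, transcription factors and targets of the unfolded protein response and of the transcription factor Atf4. They were listed by symbol, 37 in all, and 36 of them had a probe set of their own among the 19938 genes measured. Pycr1, an enzyme of proline synthesis, is not analysed here, because the platform annotation gives it no probe set with a single symbol. The data were 8 Affymetrix mouse gene arrays of total RNA from cultured mouse embryonic fibroblasts, which are fibroblast cultures raised from embryos. All 8 carried the Daxx knockout in an FVB/N background. Cells complemented with Daxx, a histone chaperone that works with Atrx, formed the groups DaxxA (2 arrays) and DaxxB (2 arrays) by their titles, and cells given the vector (4 arrays) are what they are set against. The design asks which genes lie downstream of Daxx. The letters A and B are not explained in the sources used here, which do not give what drives the Daxx construct, or whether a line is a pool or a clone, and no wild-type cells are among the samples. They do not say either that the arrays of a group came from separate cultures, so p-values reflect the spread between these samples alone, and that spread may be technical.

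The unfolded protein response is set off when misfolded proteins collect in the endoplasmic reticulum (ER). The sensor Ern1 splices the mRNA of Xbp1, the sensor Atf6 is cut to release a transcription factor, and the kinase Eif2ak3 phosphorylates the initiation factor eIF2. Phosphorylated eIF2 slows translation but favours translation of Atf4, which induces genes for amino acid synthesis, amino acid import and tRNA charging. The Xbp1 and Atf6 arms mainly induce ER chaperones and components of ER-associated degradation, while other kinases reach Atf4 through eIF2 when amino acids or haem are scarce.

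Matches of known binding elements of these factors in the members are shown first. RefSeq windows of GRCm38.p6, reaching from 250 bases before to 50 bases after each annotated start, were searched on both strands, and 34 of the 37 members had at least 1 (37 windows in all). Slc7a5, Manf and Atf6 had none. The core of the element bound by Atf4 with C/EBP proteins, TGATGNAA, was found in 7 members and in 3.97% of the 32851 windows of all genes. In the sequences that follow, written 5′ to 3′ on the strand of the gene, the capitals mark the core or its reverse complement. They are shown because these members are the ones in which the Atf4 element itself was found.
Asns (chr6:7693215-7693242, minus strand): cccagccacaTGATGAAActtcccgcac
Atf3 (chr1:191183426-191183453, minus strand): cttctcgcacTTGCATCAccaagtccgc
Chac1 (chr2:119351039-119351066, plus strand): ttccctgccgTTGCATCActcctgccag
Herpud1 (chr8:94386307-94386334, plus strand): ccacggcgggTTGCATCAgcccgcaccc
Pycr1 (chr11:120643834-120643861, minus strand): gccctgtgtaTGATGCAAtgcacaaggc
Vldlr (chr19:27216810-27216837, plus strand): gcagcaatagTTGCATCAgcgctcctag
The match in Trib3, 15 to 22 bases past its start, is not printed. The match in Asns, asparagine synthetase, lies from -23 to -16 relative to the start, and the one in Vldlr from -200 to -193, counted from the later of its 2 starts.

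The ER stress response element, CCAAT and CCACG set 9 bases apart, to which Atf6 and Xbp1 bind beside the factor NF-Y, was found in 7 members and in 0.119% of all windows. All 7 are ER chaperones or folding enzymes, and Hsp90b1 held it at 2 places. The capitals mark the element in either orientation.
Calr (chr8:84847065-84847103, minus strand): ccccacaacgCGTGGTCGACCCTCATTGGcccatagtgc
Canx (chr11:50325790-50325828, minus strand): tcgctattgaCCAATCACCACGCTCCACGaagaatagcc
Creld2 (chr15:88819510-88819548, plus strand): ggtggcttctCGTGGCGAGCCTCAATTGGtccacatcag
Dnajc3 (chr14:118937817-118937855, plus strand): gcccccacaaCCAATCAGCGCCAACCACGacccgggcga
Hsp90b1 (chr10:86705628-86705666, minus strand): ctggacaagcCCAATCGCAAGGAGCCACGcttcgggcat
Hsp90b1 (chr10:86705523-86705561, minus strand): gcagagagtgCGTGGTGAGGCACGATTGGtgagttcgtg
Hspa5 (chr2:34772015-34772053, plus strand): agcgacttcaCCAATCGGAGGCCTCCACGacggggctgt
Pdia6 (chr12:17266481-17266519, plus strand): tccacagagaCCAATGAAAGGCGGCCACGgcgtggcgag
Herpud1, a scaffold of ER-associated degradation, held both the Atf4 core and the second form of the element, ATTGG and CCACG set 1 base apart, which was present in 0.0365% of all windows.
Herpud1 (chr8:94386367-94386397, plus strand): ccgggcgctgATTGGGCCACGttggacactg
The Xbp1 element TGACGTGG was present in 0.676% of all windows and in 0 members. CCAAT, which both forms of the ER stress element contain in one orientation or the other, was found in 27 members and in 37.4% of all windows. A match describes the letters only, and a window without one says nothing of a factor.

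A few facts of the whole series bear on the members. Vector replicate 2 stood apart, with an interquartile range of log2 signal of 2.79 against 3.31 to 3.39 on the other arrays and a mean correlation of 0.969 with them, where the other arrays correlated at 0.991 to 0.998 with each other. The results are therefore given for all 8 arrays and for the 7 arrays without it, called "on 7 arrays". The Daxx probe set read 7.35 and 7.36 on the DaxxA arrays and 7.46 and 7.23 on the DaxxB arrays, against 7.34, 6.85, 7.27 and 7.16 on the vector arrays (log2 signal). The groups overlapped, and the difference of 0.20 had an exact two-sided permutation p of 0.143, where 0.0286 is the smallest possible, so this signal does not separate the labels. Of the fibroblast markers 13 of 14 lay above 6.07, the level under which 95% of 1027 olfactory receptor genes lay, and Lum lay below it. The summed level of those markers, as a mean per array, was 9.30 to 9.43 on Daxx arrays and 9.57 to 9.60 on vector arrays, with 4 markers lower and 1 higher. Epithelial markers (2 of 8 above that level, Epcam and Cdh1 below), endothelial markers (1 of 6) and blood markers (2 of 5) ran at 5.75 to 5.89, 5.52 to 5.59 and 5.83 to 5.95 on Daxx arrays, against 5.74 to 6.08, 5.50 to 5.84 and 5.83 to 6.16 on vector arrays. Neural markers (5 of 7 above, 2 higher and 1 lower) averaged 7.26 to 7.30 on Daxx arrays and 7.18 to 7.49 on vector arrays, where 7.49 is vector replicate 2, and skeletal muscle markers (5 of 6) 6.38 to 6.49 and 6.32 to 6.86. The part of these markers in the members' values was not tested.

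Complementation with Daxx went with a higher signal of Atf4 and of the mitochondrial folate enzyme Mthfd2, while the ER chaperones as a group showed no common direction. With all 8 arrays, 2 of the 36 members rose (5.56%), 0 fell and 34 did not pass the test, beside 4.52% of all genes called, 1.8% higher and 2.73% lower (limma, Benjamini-Hochberg adjusted p below 0.05 over all genes). The share of members is near that background. All 36 members lay above 6.07, the level taken from olfactory receptor genes. When only genes above that level were fitted, 2 members were again called, beside 10.3% of those genes. At an unadjusted p below 0.05 there were 10 members, 9 of them higher, beside 15.4% of all genes. Of the 36, 26 had a change above 0 and the median change was 0.10 on the log2 scale, against -0.03 over all genes; with every array centred and scaled to 1 interquartile range both medians were -0.02. With any single array other than vector replicate 2 left out, 0 or 1 members were called. On 7 arrays, 6 members rose and 2 fell (22.2%), beside 12.8% of all genes, 5.26% higher and 7.57% lower. There 14 members had an unadjusted p below 0.05, beside 24.7% of all genes, and the median change was 0.02 for the members and 0.02 for all genes. In these bulk samples, fewer cells expressing a gene and less RNA per cell cannot be told apart.

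The 4 Daxx arrays and the 4 vector arrays did not overlap for 11 of the 36 members (30.6%), 10 with Daxx above and 1, Hsp90b1, with Daxx below, where 14.8% of all genes did not overlap, 8.02% above and 6.79% below. Of the members above, Asns, Slc7a5, Slc7a1, Hspa5 and Creld2 had a change below 0 on scaled arrays. Without scaling, on 7 arrays, the same genes had changes of 0.12, 0.08, 0.07, 0.06 and 0.14. Scaling stretches vector replicate 2 around its median, which raises bright genes on that array. Before scaling, its gap to the other vector arrays was already small for bright genes (all-gene median -0.02 from 11.5 to 12). On 7 arrays 14 members (38.9%) did not overlap, 10 above and 4 below, against 24.4% of all genes, 11.5% above and 12.9% below. These all-gene shares, and those of the calls on 7 arrays, include genes below 6.07, where no member lay. They were not taken over the brighter genes alone.

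**Figure D1:**
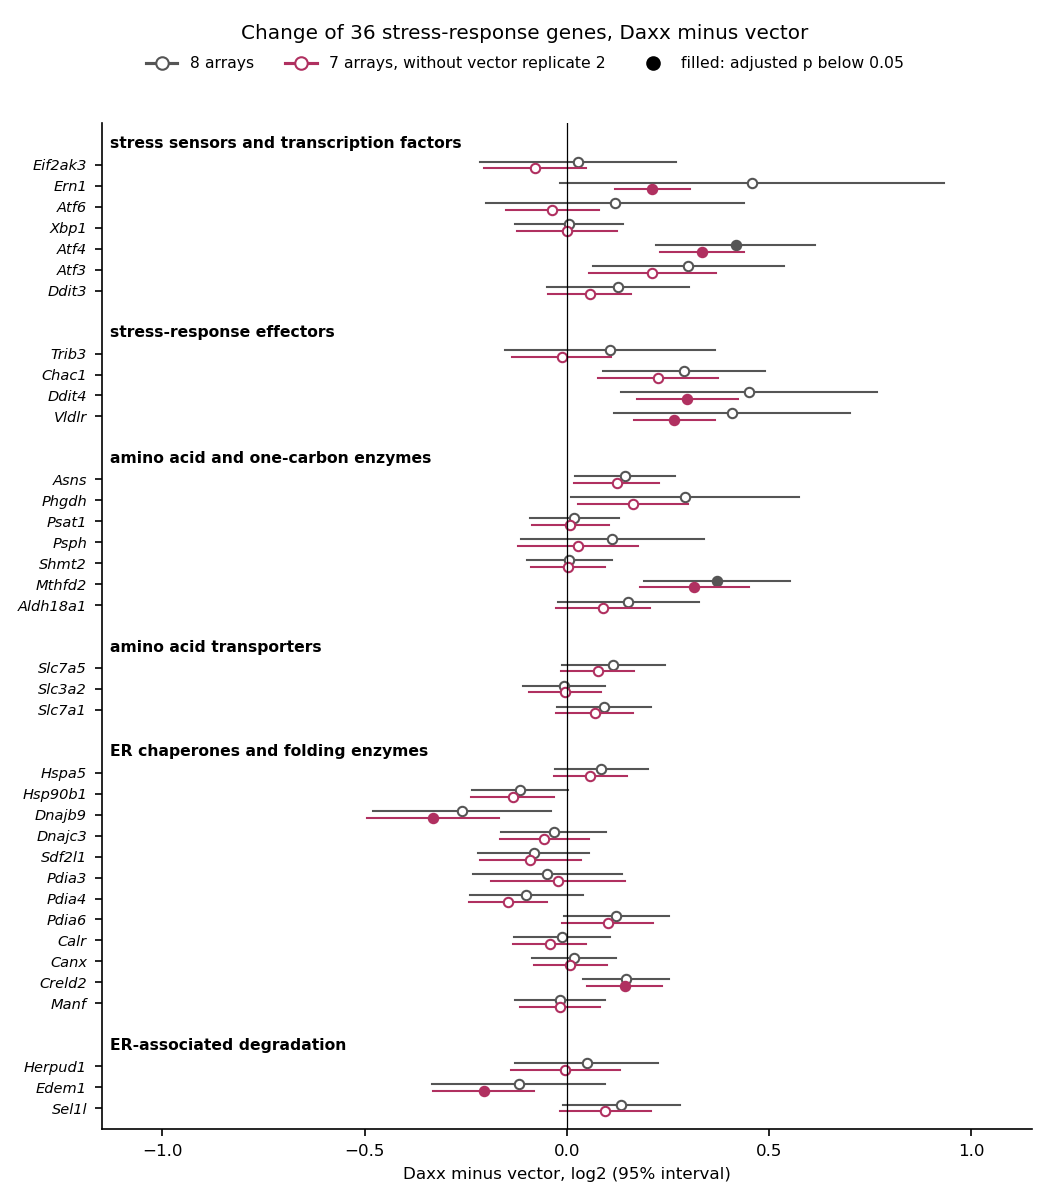
Change of each of the 36 measured members, Daxx minus vector, on the log2 scale with its 95% interval from limma, by role; grey is the fit of 8 arrays, red the fit of 7 arrays without vector replicate 2, and filled points had an adjusted p below 0.05. Atf4 and Mthfd2 are filled in both fits, at 0.42 and 0.37 with 8 arrays, and the ER chaperones lie on both sides of 0.

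Among the sensors and transcription factors, Atf4 was the one that rose in both fits. Atf4 signal was 8.84 and 8.77 on the DaxxA arrays and 8.81 and 8.85 on the DaxxB arrays, against 8.43, 8.15, 8.47 and 8.56 on the vector arrays. Every Daxx array lay above every vector array, and the lowest value was that of vector replicate 2. Atf4 averaged 8.82 ± 0.0383 with Daxx and 8.40 ± 0.176 with vector (SD, n = 4 each), a log2 change of 0.42 with a standard error of 0.0861, or 1.34-fold (limma, adjusted p = 0.0302). On 7 arrays the change was 0.33 with a standard error of 0.0471, or 1.26-fold (limma, adjusted p = 0.00102). The call was also kept without vector replicate 4 (0.47, limma adjusted p = 0.0323). It was lost without vector replicate 1 (adjusted p = 0.086, limma) or 3 (0.073), without DaxxA replicate 1 (0.098) or 2 (0.075), and without DaxxB replicate 1 (0.0915) or 2 (0.108), with changes of 0.40 to 0.44 in these fits, and with the shared replicate number as a block (limma, adjusted p = 0.078).

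Ern1, the kinase and endonuclease that splices Xbp1, rose on 7 arrays and did not pass the test on 8. Its signal was 9.20, 9.22, 9.28 and 9.21 on the DaxxA and DaxxB arrays, against 9.03, 8.03, 9.01 and 9.01 on the vector arrays. The Daxx arrays lay above all vector arrays, and vector replicate 2 lay 0.98 below the mean of the other vector arrays. With 8 arrays the change was 0.46 with a standard error of 0.209 (limma, adjusted p = 0.348), and without that array it was 0.21 with a standard error of 0.0414, or 1.16-fold (limma, adjusted p = 0.00717).

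The other genes of this role did not pass the test of Daxx against vector. Xbp1, for which the data hold 1 value with no split by splice form, read 10.95 and 10.73 on DaxxA and 10.90 and 10.85 on DaxxB arrays, against 10.83, 10.84, 10.87 and 10.88 on vector arrays. Its change was 0.01 (95% interval -0.13 to 0.14), and the Daxx arrays lay on both sides of the vector arrays. Ddit3, also known as CHOP, the factor that Atf4 induces under lasting stress, read 7.52, 7.63, 7.52 and 7.57 on Daxx arrays, against 7.54, 7.22, 7.52 and 7.45 on vector arrays. The groups overlapped, with a change of 0.13 (95% interval -0.05 to 0.30) that became 0.06 without vector replicate 2. Atf3, a stress-induced repressor and partner of Atf4, had a change of 0.30 (limma, adjusted p = 0.183), Eif2ak3 of 0.03 and Atf6 of 0.12. On 7 arrays those became 0.21, -0.08 and -0.04. All 7 genes of this role lay above 0 with 8 arrays, and 5 of 7 without vector replicate 2, while Xbp1 lay below 0 on scaled arrays.

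**Figure D2:**
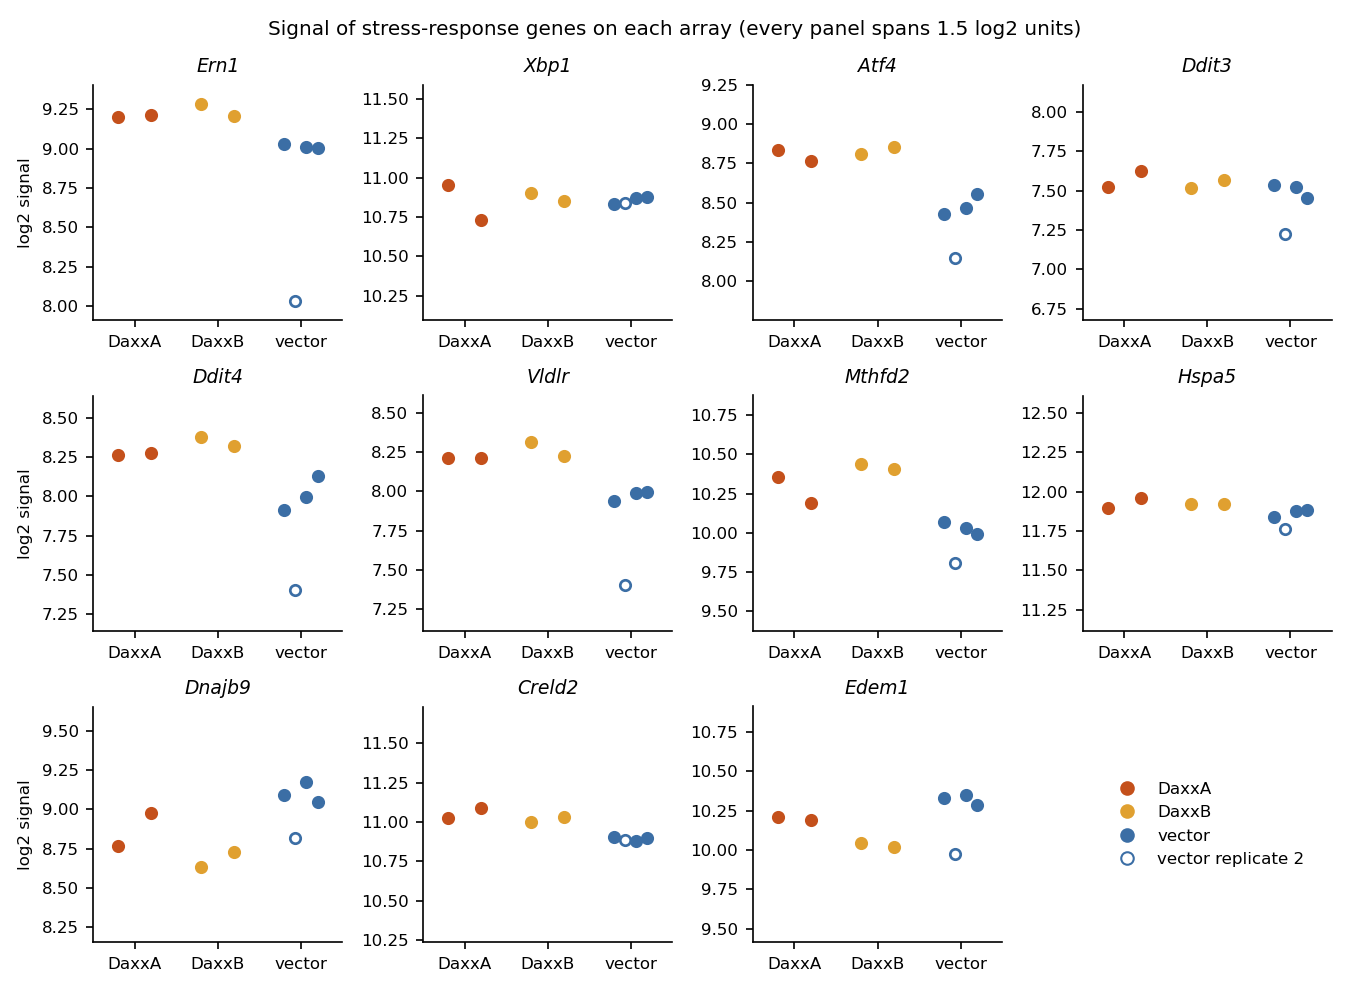
Log2 signal on each array for the members called in Daxx minus vector with 8 or 7 arrays and for Ddit3, Xbp1 and Hspa5; each panel spans 1.5 log2 units, each point is 1 array, and the open point is vector replicate 2. For Ern1 the open point is at 8.03, against 9.01 to 9.03 on the other vector arrays, while for Mthfd2 it is at 9.81, nearer to the other vector arrays.

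The 4 effectors of the stress response had the highest median change of any role, 0.35 with 8 arrays, but 0 passed the adjusted test (limma), beside 4.52% of all genes, and 3 had an unadjusted p below 0.05, beside 15.4% of all genes. Ddit4, an inhibitor of the growth kinase mTORC1, read 8.26 and 8.28 on DaxxA and 8.38 and 8.32 on DaxxB arrays, against 7.91, 7.41, 7.99 and 8.13 on vector arrays. Vldlr, a lipoprotein receptor that Atf4 induces, read 8.21, 8.21, 8.32 and 8.22 on Daxx arrays, against 7.94, 7.40, 7.99 and 8.0 on vector arrays. For both, all Daxx arrays lay above all vector arrays and vector replicate 2 lay lowest. The changes were 0.45 for Ddit4 (standard error 0.139; limma, adjusted p = 0.131) and 0.41 for Vldlr (standard error 0.128; limma, adjusted p = 0.134). On 7 arrays both rose, Ddit4 by 0.30 or 1.23-fold (limma, adjusted p = 0.00596) and Vldlr by 0.27 or 1.2-fold (limma, adjusted p = 0.00313). Chac1, which degrades glutathione, read 9.13 and 8.93 on DaxxA and 9.19 and 9.15 on DaxxB arrays, against 8.95, 8.61, 8.88 and 8.79 on vector arrays. DaxxA replicate 2 lay just below vector replicate 1, and the change was 0.29 (limma, adjusted p = 0.124), or 0.23 without vector replicate 2 (limma, adjusted p = 0.0512). Trib3, a pseudokinase that feeds back on Atf4, had a change of 0.11 with 8 arrays and of -0.01 without vector replicate 2.

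Of the enzymes of amino acid and one-carbon metabolism, 1 of 7 rose, beside 1.8% of all genes called higher, and the other 6 did not pass the test. Mthfd2, which oxidises methylene-tetrahydrofolate in mitochondria, read 10.35 and 10.19 on DaxxA and 10.44 and 10.41 on DaxxB arrays, against 10.07, 9.81, 10.03 and 9.99 on vector arrays. All Daxx arrays lay above all vector arrays. The means were 10.35 ± 0.111 with Daxx and 9.98 ± 0.116 with vector (SD, n = 4 each), a change of 0.37 with a standard error of 0.0792, or 1.29-fold (limma, adjusted p = 0.0346). The change without vector replicate 2 was 0.32, or 1.24-fold (limma, adjusted p = 0.00654), and the call was also kept without DaxxA replicate 2 (0.42; limma, adjusted p = 0.0328). It was lost without DaxxA replicate 1 (0.106, limma adjusted p), DaxxB replicate 1 (0.116) or 2 (0.123), or vector replicate 1 (0.0651), 3 (0.0864) or 4 (0.0813). With the replicate number as a block the change was 0.41 (limma, adjusted p = 0.156), and with every array centred and scaled to 1 interquartile range it was 0.26 (limma, adjusted p = 0.176).

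The other measured enzymes did not pass the test. Shmt2, the mitochondrial enzyme that feeds serine carbon to Mthfd2, had a change of 0.01 (10.77 ± 0.0387 with Daxx and 10.76 ± 0.0114 with vector). Phgdh, Psat1 and Psph, which make serine in that order, had changes of 0.29, 0.02 and 0.11, and of 0.16, 0.01 and 0.03 without vector replicate 2. Asns, whose Atf4 element is shown above, averaged 12.22 ± 0.0586 with Daxx and 12.08 ± 0.0542 with vector (SD, n = 4 each). The groups did not overlap, but the change of 0.14 did not pass the test (limma, adjusted p = 0.232). Aldh18a1, which starts proline synthesis from glutamate, had a change of 0.15 (limma, adjusted p = 0.413). All 7 measured enzymes lay above 0 in both fits, with medians of 0.14 and 0.09, though Asns, Psat1 and Shmt2 lay below 0 on scaled arrays.

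The 250 bases before the starts of Atf4 and Mthfd2, the members called with all 8 arrays, are shown because neither window held the Atf4 core or the ER stress element. The start used for Mthfd2 is the only one that the RefSeq promoter table gives for it, and it lies inside the gene's annotated locus, chr6:83305704-83326011 on the minus strand, not at its end. Capitals mark CCAAT or its reverse complement, which the Atf4 stretch holds 2 times (GC content 59.2%) and the Mthfd2 stretch 3 times (52.4%).
Atf4 (chr15:80254934-80255183, plus strand): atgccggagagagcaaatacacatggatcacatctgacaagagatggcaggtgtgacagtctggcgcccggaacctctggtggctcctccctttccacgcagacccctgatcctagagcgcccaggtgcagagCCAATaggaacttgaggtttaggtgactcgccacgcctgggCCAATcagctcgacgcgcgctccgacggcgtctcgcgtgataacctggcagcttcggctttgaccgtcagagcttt
Mthfd2 (chr6:83317605-83317854, minus strand): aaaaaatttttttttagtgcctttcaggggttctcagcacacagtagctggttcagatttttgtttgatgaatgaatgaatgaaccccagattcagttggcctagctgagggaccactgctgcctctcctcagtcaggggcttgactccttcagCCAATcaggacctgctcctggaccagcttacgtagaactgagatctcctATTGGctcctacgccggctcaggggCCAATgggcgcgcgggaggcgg

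The amino acid transporters did not pass the test. Slc7a5, which imports large neutral amino acids, averaged 11.38 ± 0.0314 with Daxx and 11.27 ± 0.0788 with vector (SD, n = 4 each), a change of 0.12. Its partner chain Slc3a2 was level at 12.47 ± 0.024 and 12.47 ± 0.0142. Slc7a1, which imports arginine and lysine, had a change of 0.09, with all Daxx arrays above all vector arrays (10.24 to 10.33 against 10.12 to 10.23). On scaled arrays the change was -0.050 for Slc7a5 and -0.029 for Slc7a1.

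Of the 12 ER chaperones and folding enzymes, 0 passed the adjusted test with 8 arrays (limma), beside 4.52% of all genes, 2 had an unadjusted p below 0.05, beside 15.4%, and 4 lay above and 8 below 0. Hspa5, also known as BiP, the Hsp70 chaperone that holds the sensors inactive, read 11.90, 11.96, 11.92 and 11.92 on Daxx arrays, against 11.84, 11.76, 11.88 and 11.89 on vector arrays. All Daxx arrays lay above all vector arrays, with a change of 0.09 (95% interval -0.03 to 0.20), of 0.06 without vector replicate 2 and of -0.11 on scaled arrays. Hsp90b1, the Hsp90 protein of the ER, read 12.12, 12.12, 12.00 and 12.05 on Daxx arrays, against 12.18, 12.13, 12.20 and 12.24 on vector arrays. Here every Daxx array lay below every vector array, with a change of -0.12 (limma, adjusted p = 0.346).

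Once vector replicate 2 was left out, 1 of the 12 chaperones and folding enzymes rose and 1 fell (16.7%). This is near the 12.8% of all genes called there, 5.26% higher and 7.57% lower. Creld2, an ER stress-inducible folding protein, read 11.02, 11.09, 11.00 and 11.03 on Daxx arrays, against 10.90, 10.88, 10.88 and 10.90 on vector arrays. The vector arrays, replicate 2 included, lay within a narrow band below all Daxx arrays. The change was 0.15 with 8 arrays (limma, adjusted p = 0.142) and 0.14 without vector replicate 2 (1.1-fold, limma adjusted p = 0.0477). All 8 arrays, centred and scaled, gave -0.0093. That scaling raises bright genes on vector replicate 2, where Creld2 had a gap of only -0.0082 to the other vector arrays before it. Dnajb9, a co-chaperone of Hspa5 that Xbp1 induces, read 8.76 and 8.97 on DaxxA and 8.63 and 8.73 on DaxxB arrays, against 9.09, 8.82, 9.17 and 9.05 on vector arrays. Only vector replicate 2 lay within the range of the Daxx arrays. The change was -0.26 with 8 arrays (limma, adjusted p = 0.225), and without that array Dnajb9 fell by 0.33 on the log2 scale (limma, adjusted p = 0.0142).

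The remaining folding genes did not pass the test in either fit of Daxx against vector. The disulfide isomerases Pdia3, Pdia4 and Pdia6 had changes of -0.05, -0.10 and 0.12 with 8 arrays, and of -0.02, -0.15 and 0.10 without vector replicate 2. The lectin chaperones Calr and Canx, which hold newly made glycoproteins, had changes of -0.01 and 0.02. Sdf2l1, a partner of Hspa5, Dnajc3, its co-chaperone, and the secreted stress protein Manf had changes of -0.08, -0.03 and -0.02. Pdia4 had a second probe set below the level of 6.07 (5.42 with Daxx and 5.32 with vector) whose difference was 0.11, the opposite sign. The second probe set of Dnajc3 held the same value as the first on every array, so it is no separate reading.

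In ER-associated degradation, Edem1, which passes misfolded glycoproteins on for degradation, read 10.21 and 10.19 on DaxxA and 10.04 and 10.02 on DaxxB arrays, against 10.33, 9.97, 10.35 and 10.28 on vector arrays. Apart from vector replicate 2, which was the lowest of the 8, all vector arrays lay above all Daxx arrays. The change was -0.12 with 8 arrays (limma, adjusted p = 0.654), and without that array Edem1 fell by 0.21 on the log2 scale (limma, adjusted p = 0.0382). Sel1l, the adaptor of the Hrd1 ubiquitin ligase, and Herpud1 had changes of 0.13 and 0.05 that did not pass the test.

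Vector replicate 2 was the lowest vector array for 31 of the 36 members (86.1%) and the highest for 1, Pdia3. Over all genes whose mean was at least that of the lowest member it was the lowest for 66.3%, and over all genes for 39.2%. It lay a median of 0.17 below the other vector arrays for the members, given as -0.17, against -0.13 for genes of the same range of signal. The gap varied with signal. For the 7 members with a mean under 8.5 its median was -0.42, against -0.12 for all genes of that range. That range is uneven, with an all-gene median of 0.14 from 6.5 to 7. Most of the 7 members lay above 7.5, where the all-gene median was -0.15 up to 8 and -0.21 from 8 to 8.5. For the 11 members between 8.5 and 10 the median gap was -0.21 against -0.19, and for the 18 members at 10 or more it was -0.09 against -0.08. Ern1 at -0.98, Atf6 at -0.62, Ddit4 at -0.61 and Vldlr at -0.57 had the widest gaps.

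**Figure D3:**
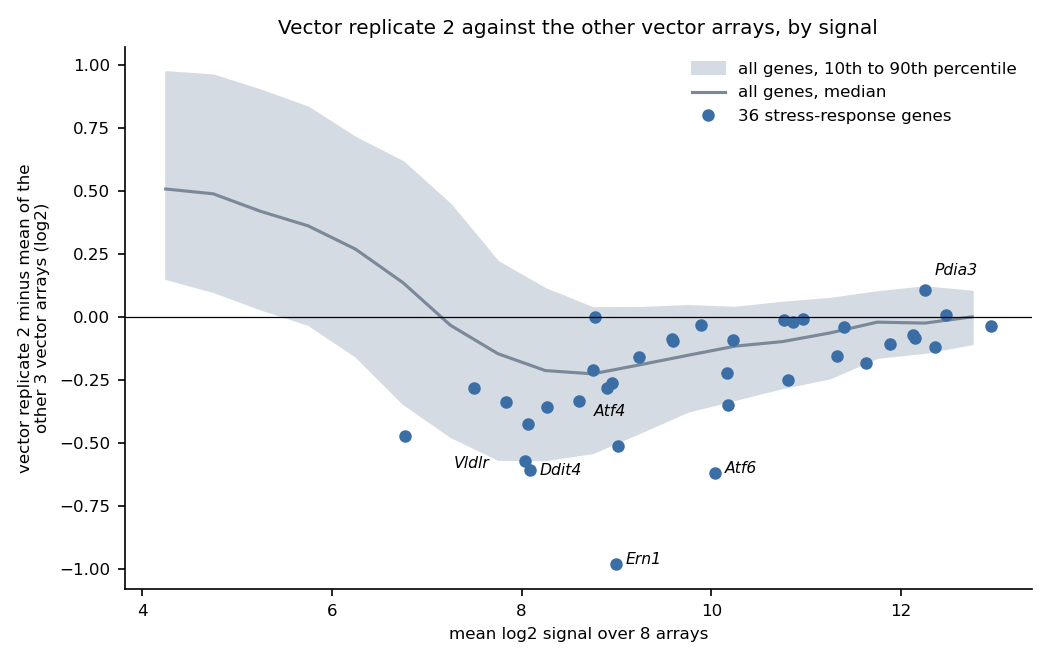
Vector replicate 2 minus the mean of the other 3 vector arrays (log2) against the mean log2 signal over 8 arrays; points are the 36 members, the line is the median of all genes and the band runs from their 10th to their 90th percentile. Most members lie below 0, with Ern1 at -0.98.

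DaxxA and DaxxB were each set against the same vector arrays, so their values are not independent of each other. With 8 arrays 0 members were called for DaxxA (limma), beside 1.97% of all genes, and 6 had an unadjusted p below 0.05, beside 11.4%. For DaxxB 0 were called (limma), beside 2.69% of all genes, and 9 had an unadjusted p below 0.05, beside 14.5%. Without vector replicate 2, 6 members rose and 1 fell for DaxxA (19.4%), beside 11.3% of all genes, 4.46% higher and 6.8% lower. For DaxxB 7 rose and 3 fell (27.8%), beside 20.5% of all genes, 10.9% higher and 9.53% lower. Unadjusted, 13 members passed for DaxxA and 15 for DaxxB, beside 23.6% and 34.7% of all genes. Ern1, Atf4, Ddit4, Vldlr and Mthfd2 rose in both. For Atf4 the changes without vector replicate 2 were 0.32 for DaxxA and 0.35 for DaxxB, for Mthfd2 0.24 and 0.39, and for Ddit4 0.26 and 0.34. Creld2 passed for DaxxA (0.16; limma, adjusted p = 0.0494) and had 0.12 for DaxxB (adjusted p = 0.092).

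Some members passed the 7-array test for 1 of the Daxx groups. Atf3, at 8.49 and 8.23 on DaxxA and 8.46 and 8.5 on DaxxB arrays, against 8.23, 7.85, 8.12 and 8.28 on vector arrays, rose by 0.27 for DaxxB (limma, adjusted p = 0.0291), with 0.15 for DaxxA (limma, adjusted p = 0.268). Chac1 rose by 0.30 for DaxxB (limma, adjusted p = 0.0114), with 0.15 for DaxxA (adjusted p = 0.196). Dnajb9 and Edem1 fell by 0.42 and 0.29 on the log2 scale for DaxxB (limma, adjusted p = 0.0019 and 0.00195), with -0.24 and -0.12 for DaxxA (adjusted p = 0.0522 and 0.139). Hsp90b1 fell by 0.18 for DaxxB (limma, adjusted p = 0.0223), with -0.09 for DaxxA. Sdf2l1, at 9.80 and 9.74 on DaxxA and 9.92 and 9.95 on DaxxB arrays, against 9.98, 9.91, 9.92 and 9.93 on vector arrays, fell by 0.17 for DaxxA (limma, adjusted p = 0.0431), with -0.01 for DaxxB.

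These unequal calls are no test of a difference between DaxxA and DaxxB, and the direct test called 0 of the members. With 8 arrays 0 members were called in DaxxA minus DaxxB (limma), beside 0% of all genes. Sdf2l1 alone had an unadjusted p below 0.05, beside 4.24% of all genes. Its difference was -0.16 (95% interval -0.31 to -0.01), while Dnajb9 had 0.19, Edem1 0.17 and Herpud1 -0.17. The highest was Pdia3 at 0.21 (95% interval -0.01 to 0.43). On 7 arrays again 0 members were called (limma), beside 2.15% of all genes, and 6 had an unadjusted p below 0.05, beside 22.3%, the lowest adjusted p being 0.104 for Edem1. With 2 arrays in each group, differences of this size cannot be settled.

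**Figure D4:**
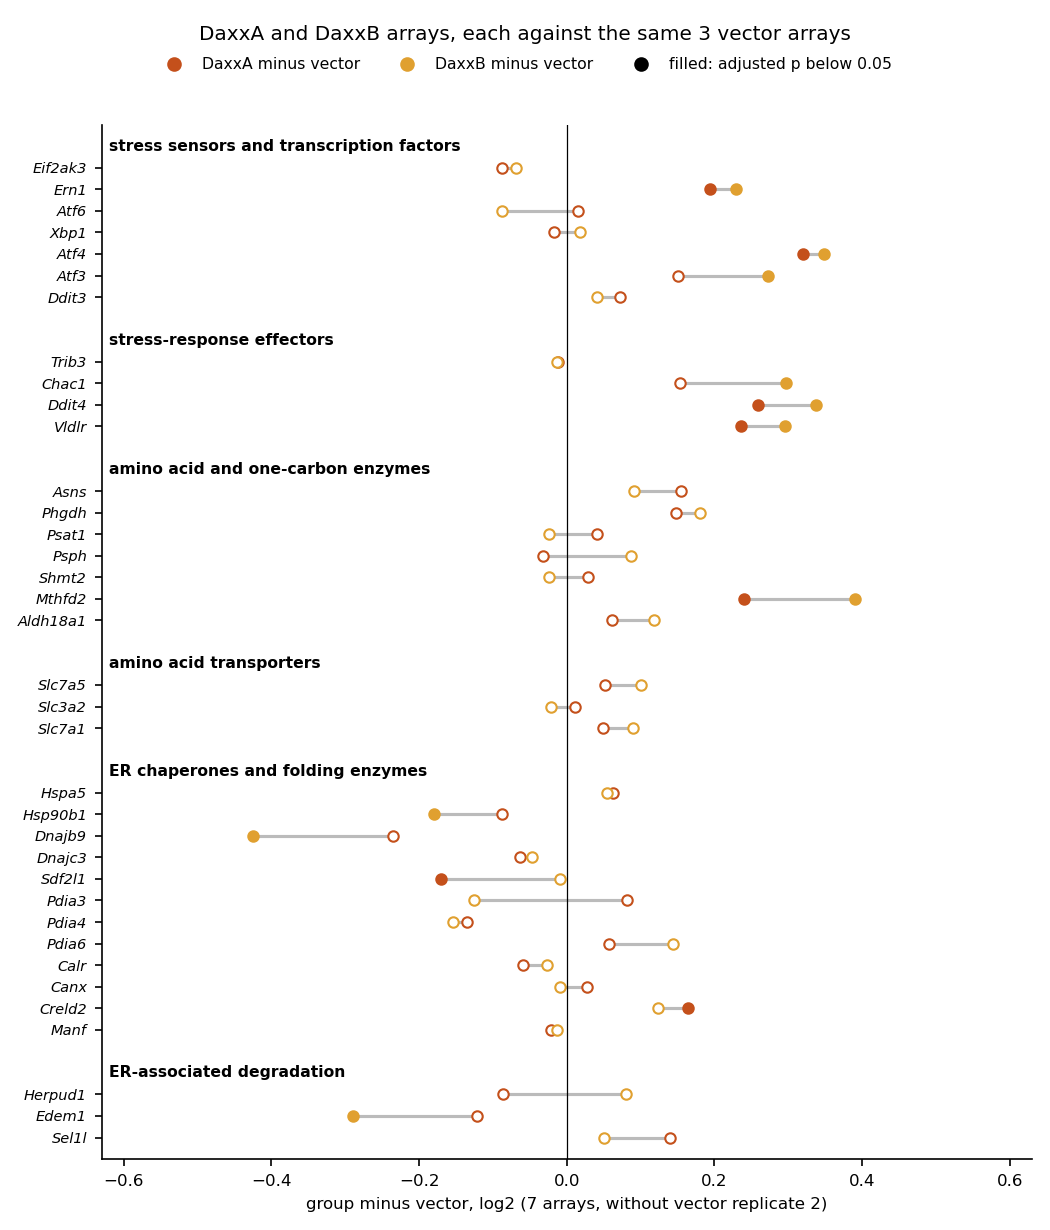
Change of each member for DaxxA and for DaxxB against the same 3 vector arrays (7 arrays, log2), by role; filled points had an adjusted p below 0.05 and the grey bar joins the groups. Atf4 lies at 0.32 and 0.35, while Dnajb9 lies at -0.24 and -0.42.

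Set beside the motifs, the 6 measured members with the Atf4 core (Atf3, Trib3, Chac1, Vldlr, Asns and Herpud1) all had a change above 0 with 8 arrays, with a median of 0.22 and a range of 0.05 to 0.41, and 0 were called (limma), but Asns and Herpud1 lay below 0 on scaled arrays. On 7 arrays 4 lay above 0 and 2 below, the median was 0.17 and 1, Vldlr, was called. The 7 members with the ER stress element (Hspa5, Hsp90b1, Dnajc3, Pdia6, Calr, Canx and Creld2) had a median of 0.02 and a range of -0.12 to 0.15, with 4 above 0 and 3 below, and 0 called (limma), but Hspa5, Canx and Creld2 lay below 0 on scaled arrays, at -0.11, -0.22 and -0.0093. On 7 arrays their median was 0.01 and 1, Creld2, was called. The 20 measured members with a window and neither element had a median of 0.06, and both members called with 8 arrays were among them. On 7 arrays their median was 0.02 and 6 were called. Beside these counts, 4.52% of all genes were called with 8 arrays and 12.8% on 7.

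**Figure D5:**
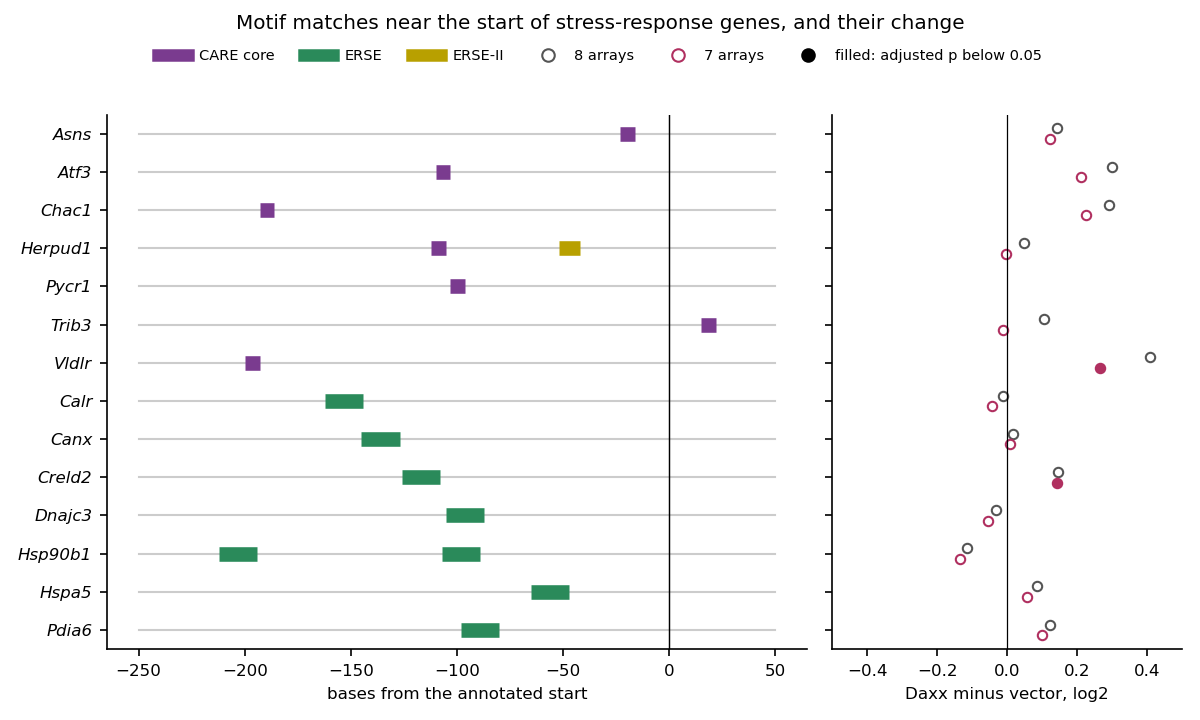
Left, matches of the Atf4 core (CARE core) and of the ER stress elements (ERSE, ERSE-II) in bases from the annotated start, from 250 before to 50 after it; right, Daxx minus vector on the log2 scale with 8 and 7 arrays, filled where the adjusted p was below 0.05. The genes with the Atf4 core lie to the right of 0 with 8 arrays, up to 0.41 for Vldlr (Asns and Herpud1 fall below 0 on scaled arrays, not drawn). The genes with the ER stress element lie between -0.12 and 0.15 with 8 arrays (Hspa5, Canx and Creld2 fall below 0 on scaled arrays, not drawn).

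Further genes of the same pathways, in 5 lists with 105 measured genes that are not among the members, had 9 higher and 2 lower with 8 arrays (10.5%), beside 4.52% of all genes, and 19 higher and 8 lower without vector replicate 2 (25.7%), beside 12.8%. Nearly all genes of these lists lay above 6.07. When only genes above that level were fitted with 8 arrays, 18 genes of these lists were called, beside 10.3% of all such genes. The background thus depends on the dim genes in it, and the 10.5% comes from the fit that includes them. The 11 genes called with 8 arrays became 9 without vector replicate 4 and 5 to 7 without any other single array than vector replicate 2, 5 on scaled arrays, and 2 with the replicate number as a block. Beside these and the following counts, 1.8% of all genes were called higher and 2.73% lower with 8 arrays. Of 27 other Atf4 targets 3 rose and 0 fell, with 18 changes above 0 and 9 below. Aldh1l2, a mitochondrial folate enzyme like Mthfd2, read 9.46, 9.38, 9.46 and 9.40 on Daxx arrays, against 8.89, 8.76, 8.98 and 9.01 on vector arrays. All Daxx arrays lay above all vector arrays, with a change of 0.52 or 1.43-fold (limma, adjusted p = 0.00267). Nupr1, a stress-induced chromatin protein, rose by 0.37 or 1.3-fold (limma, adjusted p = 0.0104), and Sqstm1, an autophagy receptor, by 0.24 or 1.18-fold (limma, adjusted p = 0.0326). Bcat1, which transfers amino groups of branched-chain amino acids, had a change of 0.21 (limma, adjusted p = 0.0588). On 7 arrays 7 of the 27 targets rose and 3 fell, beside 5.26% of all genes called higher and 7.57% lower.

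Of 16 cytosolic aminoacyl-tRNA synthetases, which load amino acids onto tRNAs, 3 rose and 0 fell, beside the 1.8% and 2.73% of all genes. Tars, for threonine, read 9.51, 9.47, 9.46 and 9.41 on Daxx arrays, against 9.06, 8.87, 9.07 and 9.18 on vector arrays. Its change was 0.41 or 1.33-fold (limma, adjusted p = 0.0138). Wars, for tryptophan, rose by 0.36 or 1.29-fold (limma, adjusted p = 0.0147) and Yars, for tyrosine, by 0.35 or 1.27-fold (limma, adjusted p = 0.0416). Nars, for asparagine, had a change of 0.16 (limma, adjusted p = 0.0979). All Daxx arrays lay above all vector arrays for each of these synthetases.

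Of 13 genes of eIF2, its kinases, its exchange factor and its phosphatases, 1 rose, beside 1.8% of all genes: Impact, an inhibitor of the eIF2 kinase Gcn2, by 0.24 or 1.18-fold (limma, adjusted p = 0.0484). The exchange factor subunits Eif2b3 and Eif2b2 had changes of 0.21 and 0.43 (limma, adjusted p = 0.0616 and 0.0643). Of 30 other genes of ER folding and translocation 1 rose and 1 fell, beside 1.8% and 2.73% of all genes. Dnajb11, another co-chaperone of Hspa5, rose by 0.25 or 1.19-fold (limma, adjusted p = 0.0298), and Spcs3, a subunit of signal peptidase, fell by 0.33 on the log2 scale (limma, adjusted p = 0.00899).

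Of 19 further genes of ER degradation and Atf6 processing, 1 rose and 1 fell, beside the same shares of all genes, and both are ER-anchored relatives of Atf6 that are cut in the same way. Creb3l1 read 10.69, 10.76, 10.76 and 10.70 on Daxx arrays, against 10.22, 10.12, 10.22 and 10.14 on vector arrays. Creb3l2 read 9.12, 8.98, 8.99 and 9.03 on Daxx arrays, against 9.43, 9.30, 9.47 and 9.47 on vector arrays. Neither overlapped between the groups. Creb3l1 rose by 0.55 or 1.47-fold (limma, adjusted p = 0.000464), and Creb3l2 fell by 0.39 on the log2 scale (limma, adjusted p = 0.0085). Mbtps1, the protease that makes the first cut in these proteins, had a change of -0.19 (limma, adjusted p = 0.13) and of -0.22 without vector replicate 2 (limma, adjusted p = 0.0109).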

How the data were processed

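Total RNA of 8 samples was amplified, biotin-labelled and hybridised to 1 array each, per the labels' protocols. The deposited values are log2 signals made by the authors with Affymetrix Expression Console and RMA (background correction, quantile normalization and a summary per probe set), per the submitters' processing notes; no version, scan time or genome build is given in the sources used here. RMA compresses differences near background and hides shifts shared by most genes.

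Of 35556 probe sets, 21789 had 1 gene symbol in the platform annotation, 1621 several and 12146 none. The probe set with the highest mean was used for each gene, which left 19938. limma 3.58.1 in R 4.3.3 (lmFit, eBayes) was fitted to all genes, as Daxx and vector or as DaxxA, DaxxB and vector, and p-values were adjusted over the whole table (Benjamini-Hochberg); an adjusted p below 0.05 made a call. The fit was tried on simulated data with independent normal noise, in which a gene had the same spread on every array. Those data held no array like vector replicate 2, so they say nothing of its effect. The number of arrays limits the precision. Values of every array were given for members called in any comparison, with 8 or 7 arrays, and for Atf4, Ddit3, Xbp1 and Hspa5, and the other members by their change; up to 4 genes of each other list were named by adjusted p. The members and all lists were chosen with earlier results of these data known. Sequences and starts are from RefSeq (GRCm38.p6). Alternatives left out each array, used the replicate number as a block, array weights, rescaled arrays, no dim probe sets, the mean of a gene's probe sets, and an intensity trend with a robust prior.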

Additional observations from a re-analysis of the deposited data

Results flagged for a closer look

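On 6 members vector replicate 2 stood apart from the other vector arrays by more than Dixon's test allows for 4 samples, always as the lowest: Ern1 at 8.03, Atf6 at 9.51, Vldlr at 7.40, Aldh18a1 at 10.55, Slc7a5 at 11.15 and Canx at 12.91 (log2 signal). Over all genes the vector arrays held such an outlier for 25.1%, and for 24% of all genes it was vector replicate 2. Among the Daxx arrays, Ern1 (DaxxB replicate 1, 9.28) and Vldlr (DaxxB replicate 1, 8.32) had a high array, Atf3 a low one (DaxxA replicate 2, 8.23), and Asns and Canx a high one (DaxxA replicate 2, 12.31 and 13.00). Over all genes the Daxx arrays held one for 4.61%, and chance alone flags about 1 in 20 groups.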

How the results depend on the processing

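Genes called in Daxx minus vector numbered 902 with 8 arrays, 446 to 2558 when single arrays were left out, 162 with the replicate block and 3231 with array weights, which gave vector replicate 2 a weight of 0.0521. Members called (2) became 0 to 8 without single arrays, 0 with the block, 11 with array weights and 1 (Atf4) on arrays centred and scaled, where the members' median was -0.02, as over all genes. For DaxxA (0 called; limma, 6 unadjusted) they were 0 to 7 without single arrays, 7 with array weights and 1 with an intensity trend and robust prior. For DaxxB (0; limma, 9 unadjusted) they were 0 to 10, 11 and 2, and 1 without dim probe sets. Other pathway genes called (11) were 5 to 27 without single arrays, 2 with the block, 32 with array weights, 5 on scaled arrays, 18 without dim probe sets and 21 with the trend. Beside these, 2.24% to 12.8%, 0.813%, 16.2%, 3.8%, 10.3% and 6.46% of all genes were called in Daxx minus vector, in that order. For DaxxA the share of all genes was 13.6% with array weights and 2.91% with the trend. For DaxxB it was 21.3% and 4.52%, and 7.18% without dim probe sets. The labels do not say what a replicate number shares, so the numbers were not taken to pair samples. Deviations from the group mean correlated at 0.02 to 0.16 for same-numbered arrays and at -0.16 to 0.08 for others. With 2 arrays in each Daxx group, the deviations within it are mirror images, so these values cannot settle whether samples are paired. Changes of members uncalled with 8 arrays that took the other sign were, with scaled arrays, Xbp1 -0.15, Asns -0.060, Psat1 -0.15, Shmt2 -0.14, Slc7a5 -0.050, Slc7a1 -0.029, Hspa5 -0.11, Canx -0.22, Creld2 -0.0093 and Herpud1 -0.0030. On 7 arrays without scaling all of these except Herpud1 lay above 0. With array weights the changes of the other sign were Eif2ak3 -0.047, Atf6 -0.027 and Trib3 -0.015. With the block they were Calr 0.034 and Manf 0.014, and with the mean of its probe sets Pdia4 0.0043. Without single arrays the ranges were Eif2ak3 -0.078 to 0.10, Atf6 -0.036 to 0.19, Xbp1 -0.025 to 0.048, Trib3 -0.013 to 0.18, Psat1 -0.00097 to 0.037, Shmt2 -0.012 to 0.019, Pdia3 -0.11 to 0.013, Calr -0.043 to 0.0084 and Herpud1 -0.0032 to 0.091. The causes were not tested. Background correction and normalization could not be redone from the deposited values, and scan batches are not given.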
